A study of Mus musculus with 8 samples.

Results

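Homeobox and Pax genes encode transcription factors that set up body axes, limbs, brain regions and organs in the embryo. The 57 genes described here lie outside the *Hox* clusters. They were taken as a list of gene symbols by a rule that uses no methylation value, although earlier results of these data were known when the list was drawn up. They are 8 *Pax* genes, 8 *Lhx* genes, 3 genes of the sine oculis family (*Six2*, *Six3*, *Six6*), 6 *Irx* genes, 6 *Nkx* genes, 6 *Dlx* genes and 20 others (*Msx*, *En*, *Otx*, *Barhl*, *Emx*, *Gbx*, *Isl*, *Alx4*, *Cux2*, *Meis* and *Evx*). A CpG was counted for a gene when it lay in the gene body or up to 1500 bases upstream of the gene start on mm10 and had at least 5 reads in every mouse. All 57 genes had such CpGs, from 23 in *Six6* and 24 in *Dlx5* to 448 in *Cux2* (median 103). Together they held 6621 of the 897285 CpGs tested in the series, which is 19.5% of the 33893 CpGs that the reference genome holds in these windows. No CpG belonged to more than 1 of the 57 genes.

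DNA methylation had been measured by reduced representation bisulfite sequencing (RRBS), which digests DNA with *Msp*I at CCGG and so reads mainly CpG-rich fragments. The hepatocytes came from the perfused livers of 8 female C57Bl6/J mice, of which the 4 young mice were 10 weeks old and the 4 mid-aged mice 40 weeks old. The labels name no diet or drug for either group, and the paper states a control diet for both ages. Each mouse gave 1 library, so the 4 values of a group are 4 animals. The comparison asked where methylation differed between the 2 ages. The cells had been filtered and spun at low speed, which enriches hepatocytes. RRBS of such a preparation does not separate cell types, so a change of methylation within hepatocytes and a change in the share of other cells cannot be told apart.

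In adult tissues that do not use them, many of these genes carry CpG islands at their starts that stay free of DNA methylation and are covered by Polycomb proteins with H3K27me3. CpG islands of such developmental genes are known to gain DNA methylation with age in many mammalian tissues. Methylation across a gene body, in contrast, is usually high in genes that are transcribed.

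Depth over CpGs, with a read taken as often as it covered a CpG, was 84688363 to 118475218 in mid-aged and 46382661 to 72783367 in young libraries. At the CpGs of the 57 genes the median was 69 to 123 reads in the mid-aged mice and 27 to 72 in the young mice. Young mouse 1 was the shallowest library. The mean over all other CpGs was 44.4 to 44.5% in the mid-aged and 43.9 to 44.3% in the young mice. Cell type markers fixed as lists could be checked only in part, since few of their promoters were read. The 6 of 7 stellate cell promoters with values averaged 12.2 to 13.0% in mid-aged and 11.7 to 12.8% in young mice, and the 3 of 12 promoters of Kupffer cells and leukocytes averaged 76.9 to 84.7% and 76.9 to 88.2%. The stellate cell promoters include that of *Lhx2*, which is also among the genes described here. The 3 of 17 hepatocyte promoters averaged 35.3 to 39.2% and 28.6 to 37.2%, the 2 of 5 cholangiocyte promoters 38.8 to 42.7% and 31.1 to 41.3%, and the only sinusoidal endothelial promoter of 8 lay at 0.715 to 3.81% and 0.742 to 7.09%. None of these promoters passed limma, and their part in the results was not tested.

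The sequences of the places that the results below turn on are shown first, on the plus strand of mm10. Each of the following has 1 CpG, or in *Meis1* a pair of CpGs, whose methylation differed by the test across all CpGs, and that CpG is in capitals. *Meis1* chr11:19016380-19016492 lies in intron 1, 2524 and 2575 bases past the gene start, and its 2 CpGs were more methylated in mid-aged mice.
Meis1: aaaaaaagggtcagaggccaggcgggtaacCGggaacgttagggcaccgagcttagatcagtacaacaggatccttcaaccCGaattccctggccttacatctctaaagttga
*Barhl1* chr2:28912026-28912087 lies in intron 1, 4612 bases past the gene start, and its CpG was more methylated in mid-aged mice.
Barhl1: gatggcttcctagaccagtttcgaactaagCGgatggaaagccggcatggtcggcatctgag
*Pax5* chr4:44706338-44706399 lies in intron 1 and its CpG was less methylated in mid-aged mice.
Pax5: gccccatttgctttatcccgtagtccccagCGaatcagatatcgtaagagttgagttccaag
*Cux2* chr5:122049671-122049732 and chr5:122001175-122001236 lie in intron 1 and intron 2, and both CpGs were less methylated in mid-aged mice.
Cux2 intron 1: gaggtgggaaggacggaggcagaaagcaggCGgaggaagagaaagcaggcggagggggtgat
Cux2 intron 2: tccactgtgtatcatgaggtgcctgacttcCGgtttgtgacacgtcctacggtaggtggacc

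The next 3 sequences show places where neighbouring CpGs lay higher together in mid-aged mice, with every tested CpG in capitals. A stretch of 725 bases in *Meis1* had a wider difference than these, and only its end with the called CpGs is printed above. *Meis2* chr2:116063137-116063433 covers coding exon 2 and parts of introns 1 and 2, and holds 28 tested CpGs, of which the CpG at position 116063304 differed by the test.
Meis2: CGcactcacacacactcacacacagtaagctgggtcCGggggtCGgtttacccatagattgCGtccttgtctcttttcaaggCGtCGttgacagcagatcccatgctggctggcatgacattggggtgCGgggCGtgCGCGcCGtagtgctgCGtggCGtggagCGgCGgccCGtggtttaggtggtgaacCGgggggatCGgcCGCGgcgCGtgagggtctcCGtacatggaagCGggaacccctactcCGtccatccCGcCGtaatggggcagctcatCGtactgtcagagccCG
*Gbx2* chr1:89928771-89928925 lies wholly in coding exon 2, the exon with the homeobox, and holds 9 tested CpGs.
Gbx2: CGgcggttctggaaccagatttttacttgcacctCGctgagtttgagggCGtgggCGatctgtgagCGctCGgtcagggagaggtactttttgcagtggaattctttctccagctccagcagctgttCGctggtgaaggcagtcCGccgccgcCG
*Irx3* chr8:91799336-91799556 lies toward the 3′ end of the gene and holds 7 tested CpGs of a longer stretch of 32.
Irx3: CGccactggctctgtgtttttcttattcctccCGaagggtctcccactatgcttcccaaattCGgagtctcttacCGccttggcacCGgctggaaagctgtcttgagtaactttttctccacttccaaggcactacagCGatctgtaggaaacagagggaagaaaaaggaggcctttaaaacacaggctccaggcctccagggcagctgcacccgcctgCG

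Of the 57 genes, 44 matched the RefSeq promoter table on GRCm38.p6. In the 250 bases before the RefSeq start these 44 held a median of 14.5 CG, against 6 over all 27025 promoters. The motif CG occurred at least 10 times in 33 of the 44 and in 38.2% of all promoters. The motif CCGG, the *Msp*I site, which reads the same on both strands, was found in 33 of the 44 and in 46.8% of all promoters. Promoters of *Gbx2* (chr1:89931177-89931426) and *Dlx2* (chr2:71546755-71547004), both on the minus strand, are shown 5′ to 3′ along the gene with each CG in capitals, since promoter methylation of both genes lay higher in all mid-aged mice.
Gbx2 promoter: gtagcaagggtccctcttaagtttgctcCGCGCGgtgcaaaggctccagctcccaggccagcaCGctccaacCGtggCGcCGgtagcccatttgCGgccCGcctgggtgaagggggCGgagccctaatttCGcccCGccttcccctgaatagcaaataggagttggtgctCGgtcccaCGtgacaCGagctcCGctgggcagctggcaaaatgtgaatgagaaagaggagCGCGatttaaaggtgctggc
Dlx2 promoter: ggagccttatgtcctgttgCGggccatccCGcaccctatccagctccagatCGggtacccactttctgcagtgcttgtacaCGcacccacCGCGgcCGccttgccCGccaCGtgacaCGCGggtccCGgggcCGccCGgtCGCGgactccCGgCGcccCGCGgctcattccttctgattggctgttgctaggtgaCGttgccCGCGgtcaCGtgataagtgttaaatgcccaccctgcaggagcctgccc
The *Gbx2* sequence held 18 CG and 1 CCGG, and the *Dlx2* sequence 24 CG and 3 CCGG.

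The 57 genes were mostly unmethylated in hepatocytes of both ages. Of their CpGs, 71.1% lay in dense surroundings (10 or more CpGs within 100 bases on each side), against 48.4% of all tested CpGs. A methylation level under 10% over the 8 mice was found at 76.2% of their CpGs and at 45.1% of all. In young mice the mean over the gene and its upstream bases was under 10% in 44 of the 57 genes and above 20% in 9. These 9 were *Cux2* (63.7%), *Pax5* (43.1%), *Meis1* (38.3%), *Pax8* (38.1%), *Alx4* (33.9%), *Meis2* (31.3%), *Pax2* (26.2%), *Pax3* (24.9%) and *Pax7* (21.9%).

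The mean over all 6621 CpGs was higher in the mid-aged mice by 0.917 percentage points. It was 15.0, 15.3, 15.1 and 15.2% in the mid-aged mice and 14.5, 14.1, 14.2 and 14.1% in the young mice (15.1% ± 0.131 against 14.2% ± 0.192, SD, n = 4 each). The groups did not overlap. The mean was higher in mid-aged mice at 63.1% of these CpGs (4179 higher, 2344 lower) and at 53.7% of all tested CpGs. All other CpGs also lay higher in the mid-aged mice, by 0.316 points, so a smaller shift of the same direction ran through the whole data. Without the 9 genes above 20% the difference was 0.970 points over 5069 CpGs (7.04% ± 0.155 against 6.07% ± 0.176). No test is given for these means, because the genes were chosen with results of these data known.

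The difference was seen at every level of methylation. At CpGs under 5% it was 0.707 points in the 57 genes (2.52% against 1.81%) and 0.261 points at the other CpGs (1.36% against 1.10%). Between 5 and 20% it was 1.12 points (groups apart) against 0.463 (groups overlapping), and between 20 and 80% it was 2.24 points against 0.343, although there the groups overlapped in both sets. In the 57 genes, young mouse 1 lay at 47.5%, within the mid-aged range of 47.1 to 47.6%. At 80% and over it was 0.439 points against 0.330, again with overlapping groups. Dense CpGs under 5% outside the 57 genes shifted in the same direction, from 0.836 to 1.11% in young to 1.18 to 1.34% in mid-aged mice. The part of this shift, and of the greater depth of the mid-aged libraries, in the results was not tested.

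Methylated reads divided by all reads gave the opposite direction, 2.54 points lower in the mid-aged mice, and this measure depends on where the reads fall. CpGs under 20% took 88.7 to 93.3% of the reads at the 57 genes in mid-aged mice and 81.7 to 90.9% in young mice. With each CpG given the same weight in every mouse by its mean share of reads, an alternative chosen after seeing the data, the mid-aged mice were higher by 0.859 points.

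In the test of single CpGs, a quasi-binomial logistic model with Benjamini-Hochberg adjustment over all 897285 CpGs, 4 CpGs of the 57 genes were called higher in mid-aged mice and 3 lower. A call needed an adjusted p under 0.05 and a difference of at least 5 points. These are 0.0604% and 0.0453% of the 6621 CpGs, beside 0.0615% called higher and 0.102% called lower over all CpGs, so neither count is above the background. At an unadjusted p under 0.05, 635 CpGs (9.59%) were higher and 151 (2.28%) lower, beside 5.16% higher and 3.93% lower over all CpGs. With limma on M values, the log ratio of methylated to unmethylated reads with 1 added to each, no CpG was called in either direction. At an unadjusted p under 0.05 by that test, 313 were higher and 335 lower. All 7 calls thus depended on the model, and the excess of higher CpGs was absent with M values. At a CpG without methylated reads such a value falls as depth rises, and the mid-aged libraries were deeper. The part of depth in the 313 and 335 was not tested, and their share over all CpGs was not counted. With the replicate number as a block, no CpG was called either (312 higher and 58 lower unadjusted). No run of 3 or more called CpGs occurred. With mid-aged mouse 2, 3 or 4 left out, no CpG of the 57 genes was called higher by the quasi-binomial test (571, 575 and 571 unadjusted), and with young mouse 1 or 4 left out the number was 10 and 8. Leaving out mid-aged mouse 1 gave 2 called higher. The 3 CpGs called lower became 1 without mid-aged mouse 2, mid-aged mouse 3 or young mouse 2.

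**Figure D1:**
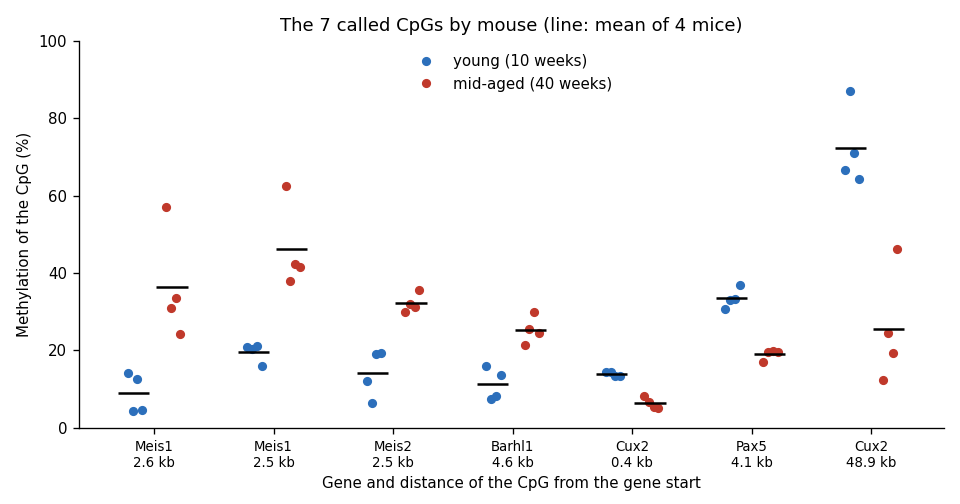
Methylation in percent (vertical axis) of the 7 called CpGs in each mouse, by gene and distance of the CpG from the gene start (horizontal axis), for young (blue) and mid-aged (red) mice, with a line at the mean of 4 mice. The groups do not overlap at any of the 7 CpGs, and the widest spread is in *Cux2* intron 2, from 12.5 to 46.2% in mid-aged mice.

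*Meis1* encodes a TALE homeodomain partner of HOX and PBX proteins and works in blood stem cells and limbs. At position 19016410 of chromosome 11 its CpG had 57.1, 31.0, 33.6 and 24.2% in mid-aged and 14.3, 4.26, 12.7 and 4.69% in young mice. Every mid-aged mouse was above every young mouse, and the highest value came from mid-aged mouse 1, with only 14 reads. The difference was 27.5 points (36.5% ± 14.3 against 8.99% ± 5.26, n = 4 each, adjusted p = 0.0172, quasi-binomial test). The CpG at 19016461 had 62.5, 38.0, 42.3 and 41.7% in mid-aged and 20.8, 20.4, 21.2 and 16.0% in young mice. Mid-aged mouse 1 was again the highest, with 8 reads, and the difference was 26.5 points (adjusted p = 0.0179). Without mid-aged mouse 1 the differences were 20.6 and 21.0 points. The first call was lost without any 1 of the 4 mid-aged mice (adjusted p up to 0.167), and the second without mid-aged mouse 2, 3 or 4 or young mouse 4 (up to 0.144). Of 22 other tested CpGs within 500 bases of the first, 21 lay higher in mid-aged mice, 11 of them at an unadjusted p under 0.05.

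*Meis2*, the paralogue of *Meis1*, had its called CpG at 116063304 of chromosome 2 in coding exon 2. It was methylated at 29.9, 32.0, 31.2 and 35.6% in mid-aged and at 12.0, 6.52, 19.0 and 19.3% in young mice. The groups were apart, and the difference was 18.0 points (32.2% ± 2.47 against 14.2% ± 6.14, adjusted p = 0.0452, quasi-binomial test). The call was lost without any 1 of the mid-aged mice or young mouse 2 (adjusted p up to 0.296). Around it, 30 of 33 other CpGs within 500 bases lay higher, 11 at an unadjusted p under 0.05. The called CpG lies 2535 bases past the gene start of GENCODE, a distance close to that in *Meis1*. The RefSeq start of *Meis2* lies 1220 bases further into the gene, so the likeness depends on the start used.

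*Barhl1*, a homeobox gene of hair cells and cerebellar neurons, had 21.5, 25.5, 30.0 and 24.5% in mid-aged and 15.9, 7.41, 8.18 and 13.7% in young mice at 28912056 of chromosome 2. The difference was 14.1 points (25.4% ± 3.50 against 11.3% ± 4.16, adjusted p = 0.0235, quasi-binomial test), and the call was lost without mid-aged mouse 2, 3 or 4 or young mouse 2 or 3 (adjusted p up to 0.115). Its neighbours did not share a direction, with 7 of 11 CpGs within 500 bases higher and 4 lower. One further CpG, in coding exon 1 of *Lhx2*, passed the adjusted p (0.0323) without reaching 5 points. It had 0% in all 4 young mice, over 56 to 265 reads, and 2.78 to 3.58% in the mid-aged mice.

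*Pax5*, the paired box gene that keeps B cells committed to their lineage, was lower at 44706368 of chromosome 4. Its CpG had 17.0, 19.7, 19.9 and 19.6% in mid-aged and 30.8, 33.0, 33.3 and 36.9% in young mice. The difference was -14.4 points (19.0% ± 1.37 against 33.5% ± 2.53, adjusted p = 0.0129, quasi-binomial test). Without mid-aged mouse 2, 3 or 4 the adjusted p was 0.0738, 0.0598 and 0.0715, so the call was lost. All 6 other CpGs within 500 bases were lower too, 1 of them at an unadjusted p under 0.05.

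*Cux2*, a CUT homeobox gene known in mouse liver for its higher expression in females, was lower at both of its called CpGs. In intron 1, 401 bases past the gene start, the values were 8.32, 6.74, 5.36 and 5.20% in mid-aged and 14.6, 14.5, 13.4 and 13.5% in young mice, over 151 to 1443 reads. The difference was -7.56 points (6.41% ± 1.45 against 14.0% ± 0.650, adjusted p = 0.00526, quasi-binomial test), and this is the most deeply read of the 7 CpGs. Its call was lost only without young mouse 2 (adjusted p = 0.0503). Its 59 neighbours within 500 bases were split, with 31 higher and 24 lower and a median difference of 0.0645 points. The place also lies within the annotated antisense gene *Gm15637*. In intron 2 the CpG at 122001205 had 12.5, 24.4, 19.2 and 46.2% in mid-aged and 66.7, 87.1, 71.0 and 64.3% in young mice, a difference of -46.7 points (adjusted p = 0.0438). It rests on 8 to 42 reads per mouse, was left out where 10 reads were required, and lost its call without mid-aged mouse 1, 2 or 3 or young mouse 2 or 3 (adjusted p up to 0.307).

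Promoters, from 1500 bases upstream to 500 bases past the gene start, could be compared in 52 of the 57 genes. None passed limma after adjustment over 17684 promoters, of which 0.0396% were called higher, and the smallest adjusted p was 0.268. At an unadjusted p under 0.05, 11 were higher and 0 lower. The share of all promoters past this threshold was not counted, so the 11 have no background beside them. The mean was higher in mid-aged mice in 41 of the 52 and lower in 11, beside 60.0% higher over all promoters. The median difference was 0.735 points against 0.152 over all promoters. In 8 of the 52 every mid-aged mouse lay above every young mouse, and in 0 below, beside 4.68% above and 1.49% below over all promoters.

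The 8 promoters were those of *Gbx2*, *Dlx2*, *Meis2*, *Lhx9*, *En2*, *Emx2*, *Irx2* and *Barhl2*. *Gbx2*, which helps to place the border of midbrain and hindbrain, had 6.81, 6.40, 5.89 and 6.34% in mid-aged and 4.26, 4.54, 4.77 and 4.60% in young mice. Its difference of 1.82 points rests on 85 CpGs (limma adjusted p = 0.268). *Dlx2*, a gene of forebrain interneurons and branchial arches, had 5.44, 4.79, 4.27 and 4.25% against 2.77, 3.75, 3.23 and 2.73% (adjusted p = 0.349). *Meis2* had 2.36, 2.31, 2.27 and 1.84% against 0.677, 1.44, 1.30 and 1.07% (adjusted p = 0.268). In every mouse these 3 promoters stayed under 10%.

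The promoters with the highest level in young mice were those of *Alx4* (19.6% ± 1.59), *Nkx2-3* (8.55% ± 1.70) and *Dlx4* (7.55% ± 1.80). In mid-aged mice they had 19.8% ± 1.18, 8.95% ± 0.537 and 6.39% ± 0.796. The lowest were *Meis1* (0.978% ± 0.224), *Lhx2* (0.994% ± 0.674) and *Meis2* (1.12% ± 0.331), with 1.06% ± 0.231, 1.66% ± 0.269 and 2.19% ± 0.242 in mid-aged mice. None of these 6 promoters passed limma. *Meis1* and *Meis2* thus joined almost unmethylated promoters, taken at the GENCODE start, to gene bodies of 59.7% and 39.4% in young mice. The RefSeq start of *Meis2* lies 1220 bases further into the gene. A promoter there would cover partly other CpGs and was not measured.

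Gene bodies, more than 500 bases past the gene start, could be compared in all 57 genes. *Irx3* alone passed limma, beside 0.251% of 18318 gene bodies called higher, and 7 of the 57 had an adjusted p under 0.1. At an unadjusted p under 0.05, 19 were higher and 0 lower. The shares of all gene bodies past these other thresholds were not counted, so the 7 and the 19 have no background beside them. The mean was higher in mid-aged mice in 52 of the 57 and lower in 5, beside 60.1% higher over all gene bodies. The median difference was 0.888 points against 0.288 over all gene bodies. As methylated reads over all reads the median of the 57 was 0.373 points. In 16 of the 57 every mid-aged mouse lay above every young mouse, and in 0 below, beside 5.19% above and 2.84% below over all gene bodies. When a gene body was measured as methylated reads over all reads, an alternative added after seeing the data, 8 of the 57 were apart and higher beside 3.32% of all.

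**Figure D2:**
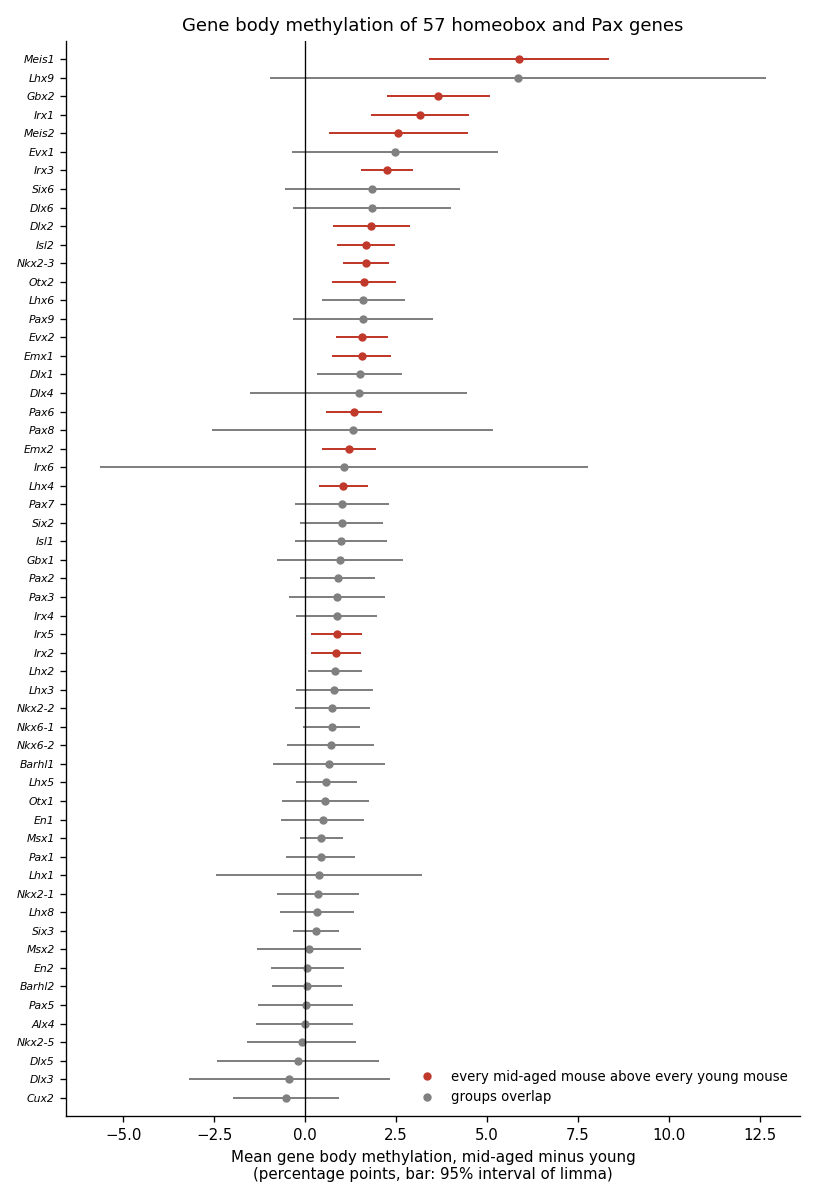
Difference in mean gene body methylation (horizontal axis, mid-aged minus young, percentage points) for each of the 57 genes (vertical axis), with the 95% interval of limma. The 16 genes in red had every mid-aged mouse above every young mouse, *Meis1* lies highest at 5.88 points, and *Lhx9*, with nearly the same mean, has an interval from -0.961 to 12.7.

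*Irx3*, an Iroquois homeobox gene of neural tube and limb patterning, is on chromosome 8 at 91798525 to 91802067 (minus strand). Its gene body had 9.76, 10.2, 10.7 and 9.77% in mid-aged and 8.05, 8.03, 7.73 and 7.63% in young mice. The groups were apart, and the difference was 2.24 points (10.1% ± 0.427 against 7.86% ± 0.213, 95% interval 1.52 to 2.96, limma adjusted p = 0.0284). The call was lost when any of the 8 mice was left out (adjusted p = 0.0510 to 0.109) and with at least 10 reads per CpG (1.31 points, adjusted p = 0.177), and the direction held throughout. Its promoter had 1.53% in mid-aged and 1.67% in young mice, with overlapping groups. The higher values lay toward the 3′ end: the 7 CpGs printed above averaged 57.3, 59.6, 59.4 and 61.1% in mid-aged and 41.6, 47.7, 47.8 and 43.7% in young mice, a difference of 14.2 points, and 6 of them had an unadjusted p under 0.05. These 7 are only a part of a stretch of 32 CpGs. The whole stretch differed by 6.49 points, and 11 of its CpGs were higher at an unadjusted p under 0.05. Most CpGs of *Irx3* (95 of 128) also lie in its antisense partner *Irx3os*, and DNA methylation cannot be given to one of the strands' genes.

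The other 5 *Irx* genes were also higher on average. *Irx1*, which lies with *Irx2* and *Irx4* in a cluster on chromosome 13, had 5.84, 7.93, 7.40 and 7.44% in mid-aged and 2.77, 4.71, 4.45 and 4.09% in young mice in its gene body (3.15 points, adjusted p = 0.0722). *Irx2* had 3.82 to 4.35% against 2.69 to 3.69%, and *Irx5* 8.88 to 9.46% against 7.80 to 8.68%. *Irx4* and *Irx6* overlapped between the groups, with differences of 0.868 and 1.06 points. Young mouse 1 was the lowest in *Irx1*, and without it the difference was 2.74 points.

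*Gbx2* had 10.7, 9.96, 8.39 and 9.26% in mid-aged and 6.44, 6.71, 4.81 and 5.77% in young mice in its gene body. The difference was 3.66 points (95% interval 2.24 to 5.07, limma adjusted p = 0.0585). The stretch in coding exon 2 printed above had 25.3, 22.0, 19.7 and 22.4% against 15.8, 14.6, 11.6 and 12.5%, a difference of 8.73 points over 9 CpGs, of which 7 had an unadjusted p under 0.05. Both its promoter and its body were thus higher in every mid-aged mouse. The paralogue *Gbx1* overlapped in both, with 0.960 points in the body. In *Gbx2*, 105 of 119 CpGs also lie in the transcript *D130058E05Rik* of the other strand.

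*Meis1* had the largest difference of the 57 gene bodies. It had 67.0, 65.6, 64.7 and 65.1% in mid-aged and 62.0, 60.5, 58.0 and 58.4% in young mice (5.88 points, 95% interval 3.40 to 8.36, limma adjusted p = 0.0686). A stretch of 725 bases and 30 CpGs, from intron 1 over coding exon 2 into intron 2, had 50.0, 40.2, 38.7 and 40.7% in mid-aged and 28.7, 30.3, 23.1 and 22.4% in young mice. That is 42.4% ± 5.16 against 26.1% ± 3.95, and 17 of the 30 CpGs had an unadjusted p under 0.05, all of them higher. The promoter was at 1.06% and 0.978%, and 8 CpGs at 4666 to 4794 bases had 86.2% in mid-aged and 81.0% in young mice. Further down, in intron 6, 18 CpGs lay lower, with 78.7 to 83.8% in mid-aged and 84.4 to 91.9% in young mice. The stretch with the widest difference thus lay between the unmethylated start and the methylated part of the gene body. In *Meis2* the stretch printed above had 16.7, 18.5, 16.8 and 17.6% against 8.95, 11.4, 12.3 and 12.5% (6.09 points), and the gene body had 41.1 to 42.6% against 37.6 to 40.8% (adjusted p = 0.282).

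**Figure D3:**
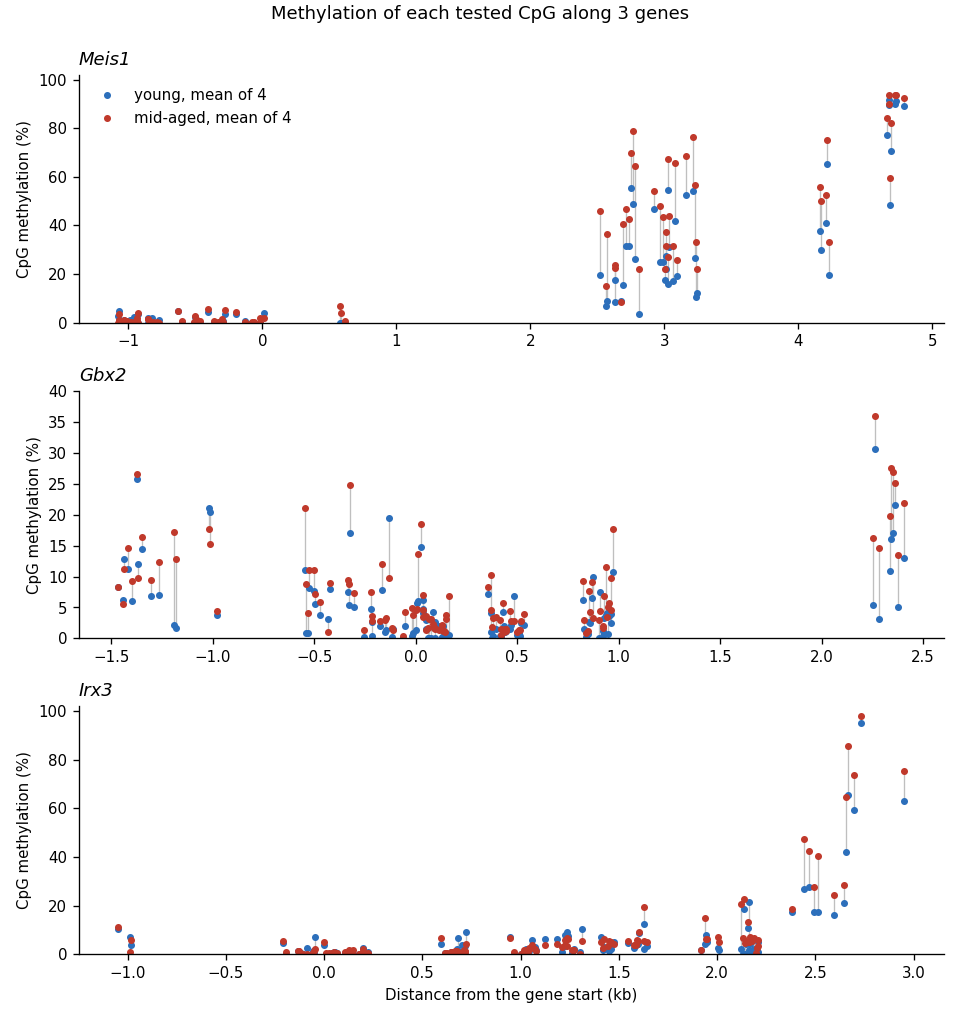
Methylation in percent (vertical axis) of each tested CpG of the start of *Meis1*, *Gbx2* and *Irx3* against its distance in kb from the gene start (horizontal axis), as the mean of 4 young (blue) and 4 mid-aged (red) mice joined by a grey line. In *Meis1* most red points stand above the blue ones between 2524 and 3247 bases (42.4% against 26.1% on average), and in *Gbx2* and *Irx3* they do so toward the end of the gene.

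Low levels in both ages were found in 4 further gene bodies whose groups were apart, chosen after their values were seen like *Gbx2*, *Lhx9* and the other genes named here without a call. *Nkx2-3*, a gene of spleen and gut mesoderm, had 5.33, 5.11, 5.12 and 5.75% in mid-aged and 3.67, 3.69, 3.29 and 3.96% in young mice (1.68 points, adjusted p = 0.0573). *Isl2*, a LIM homeobox gene of motor neurons, had 7.50 to 8.27% against 6.27, 5.57, 6.59 and 6.73% (1.68 points, adjusted p = 0.0965). *Evx2*, which lies beside the *Hoxd* cluster, had 5.87, 6.18, 5.97 and 6.01% against 4.70, 4.07, 5.03 and 3.98% (1.56 points, adjusted p = 0.0857). *Dlx2* had 6.72, 8.20, 7.47 and 8.06% against 4.87, 5.96, 6.20 and 6.14% (1.82 points, adjusted p = 0.165). In all 4 genes both groups stayed under 10%.

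**Figure D4:**
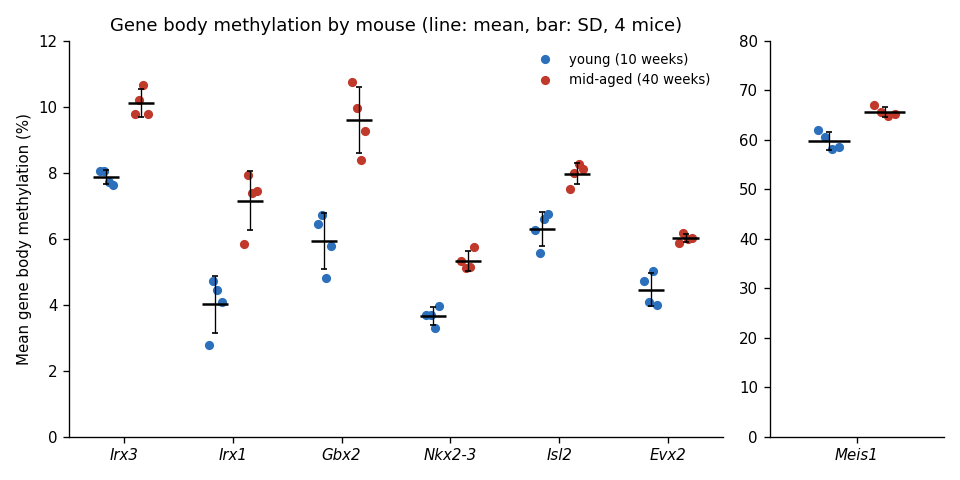
Mean gene body methylation in percent (vertical axis) of the 7 genes with an adjusted p under 0.1 (horizontal axis) in each young (blue) and mid-aged (red) mouse, with a line at the mean and a bar for the SD of 4 mice, and *Meis1* on a scale of its own. The groups are apart in all 7 genes, from 3.65% against 5.33% in *Nkx2-3* to 59.7% against 65.6% in *Meis1*.

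In *Lhx9*, a LIM homeobox gene of gonad and brain development, 1 mouse set most of the difference. Its gene body had 14.2, 25.6, 10.1 and 14.3% in mid-aged and 10.8, 10.6, 8.49 and 10.9% in young mice. Mid-aged mouse 2 stood far above the others, mid-aged mouse 3 lay within the young range, and the difference of 5.86 points had an adjusted p of 0.507. Without mid-aged mouse 2 it was 2.68 points. In intron 1 and coding exon 1, over 22 CpGs, that mouse had 29.8% beside 4.88 to 11.4% in the other mid-aged and 2.47 to 8.73% in the young mice. The *Lhx9* promoter at the gene start of GENCODE was apart in all mice, with 4.30 to 7.23% against 2.80 to 3.72% (limma adjusted p = 0.349). The RefSeq start of *Lhx9* lies 6133 bases further into the gene, and the 22 CpGs begin 6674 bases past the GENCODE start. A promoter at the RefSeq start would cover other CpGs and was not measured, so the contrast of promoter and body holds for the GENCODE start only.

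The other *Lhx* genes had smaller differences. *Lhx4*, a gene of pituitary development, had 9.93 to 10.7% in mid-aged and 9.02 to 9.50% in young mice in its gene body. *Lhx2*, which is known in stellate cells of the liver, had 8.24% against 7.42% with overlapping groups. Over the gene and its upstream bases the 8 *Lhx* genes differed by 0.353 to 4.92 points, all higher. *Six2*, *Six3* and *Six6*, of eye and kidney development, differed by 0.336 to 1.44 points, and no promoter or body of them was apart.

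Among the 8 *Pax* genes all windows were higher in mid-aged mice, by 0.200 to 1.65 points, the largest in *Pax9*. Only the body of *Pax6*, the eye and pancreas gene, was apart, with 8.37, 8.88, 8.80 and 9.11% in mid-aged and 7.28, 8.13, 7.36 and 7.00% in young mice. The *Pax5* body was at 44.5% in both ages, with a difference of 0.0109 points (95% interval -1.3 to 1.33), so the lower values around its called CpG did not extend to the mean of the body. The *Pax5* promoter, read at only 7 CpGs, had 2.75, 8.72, 11.6 and 8.22% against 0, 0.571, 2.60 and 6.22%, with overlapping groups. *Cux2*, the most methylated of the 57 bodies, had 75.9 to 76.5% in mid-aged and 76.4 to 77.1% in young mice.

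Of the 6 *Nkx* and 6 *Dlx* genes, 5 each were higher and 1 each was lower over the whole window, namely *Nkx2-5* (-0.147 points) and *Dlx3* (-0.396 points). *Cux2* (-0.429 points) was the only other of the 57 with a lower window. The head and brain genes *Emx1*, *Emx2* and *Otx2* had bodies that were apart, with 10.9 to 12.0% against 9.44 to 10.2%, 5.22 to 5.59% against 3.62 to 4.86%, and 5.30 to 6.75% against 4.13 to 4.97%. *En1*, *En2*, *Otx1*, *Barhl1*, *Barhl2*, *Msx1*, *Msx2*, *Isl1* and *Alx4* had overlapping bodies. *Evx1*, with 2.47 points, overlapped too, although its paralogue *Evx2* did not.

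The difference varied with position along the gene. From 2000 to 5000 bases past the start the 57 genes had 11.0% ± 0.161 in mid-aged and 9.26% ± 0.292 in young mice, a difference of 1.79 points over 1444 CpGs, and 14.4% of these CpGs were higher at an unadjusted p under 0.05. Other protein-coding genes differed by 0.352 points there, at a far higher level (46.2% against 45.8%), and 6.36% of their CpGs were higher. In the 57 genes this range holds the wide stretches of *Meis1* (30 CpGs, 16.3 points) and *Meis2* (28 CpGs, 6.09 points). The mean of the range without these genes was not computed. In the first 500 bases the difference was 0.540 points in the 57 genes and 0.175 in the others, and beyond 10000 bases it was 0.448 against 0.395. Coding exons differed by 1.16 points (1710 CpGs), introns by 0.935 (2446 CpGs), 5′ UTRs by 0.499 (674 CpGs), 3′ UTRs by 1.21 (227 CpGs) upstream bases by 0.729 (863 CpGs) and the parts of other transcripts by 0.787 (701 CpGs).

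**Figure D5:**
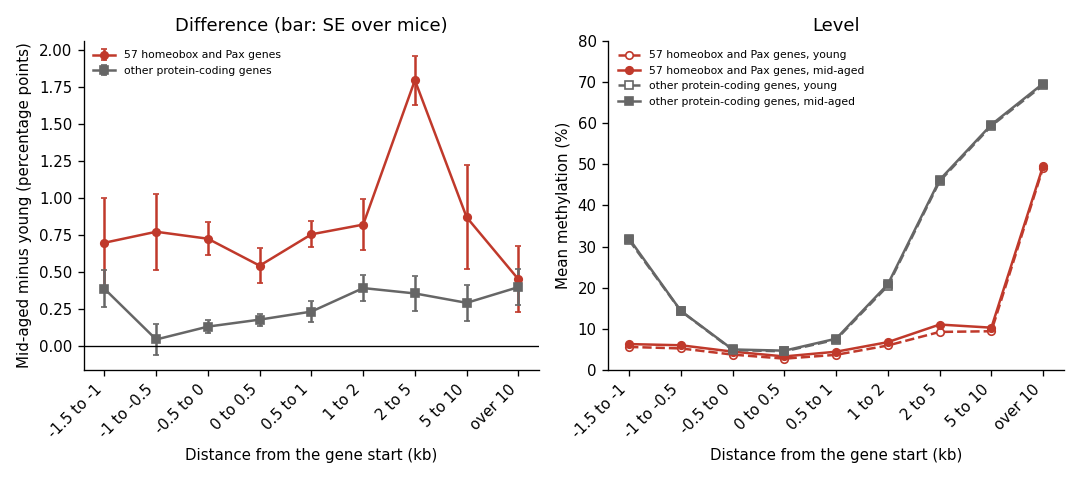
Left, difference in methylation between mid-aged and young mice (vertical axis, percentage points, bar: SE over mice), and right, mean methylation in percent, by distance from the gene start in kb (horizontal axis), for the 57 genes (red) and other protein-coding genes (grey). The 57 genes differ most from 2000 to 5000 bases (1.79 points, against 0.352 in the other genes), where their level is 11.0% and 9.26%.

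Tested CpGs no more than 200 bases apart were joined to stretches of at least 5 CpGs, a division made after seeing the data. The 57 genes held 319 stretches. In 38 every mid-aged mouse was above every young mouse and in 2 below, beside 4.16% above and 2.11% below over all 53753 stretches. Of the 38, 8 differed by 5 points or more, in *Meis1* (from 2524 and from 4666 bases), *Gbx2*, *Irx3*, *Cux2* (intron 2, 94.8% against 88.5%), *Meis2*, *Irx1* and *Pax6*. The share of all stretches apart by 5 points or more was not counted, so the 8 have no background beside them. The *Irx3* stretch of 32 CpGs, which includes the 7 printed above, had 22.2% ± 1.45 against 15.7% ± 1.15. In *Irx1* the stretch in coding exon 3 and intron 3 had 11.5, 11.5, 11.0 and 9.19% against 0, 7.60, 7.07 and 6.97%, so young mouse 1 widened that difference. The 2 lower stretches were in *Meis1* intron 6 and around the called CpG of *Pax5*, with 20.7% ± 1.64 against 28.1% ± 4.60. In long, well covered stretches the differences were small but even: 105 CpGs of *Evx2* had 6.02 to 6.40% in mid-aged and 3.88 to 4.65% in young mice, and 87 CpGs of *Dlx2* had 6.25 to 6.63% against 3.87 to 5.23%.

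Other homeobox genes, from a list of 63 of which 61 had tested CpGs, were described in the same way. Over their 5120 CpGs mid-aged mice averaged 13.1% and young mice 12.4% (0.730 points). Of these CpGs 0 were called higher and 6 lower, beside 0.0615% called higher and 0.102% called lower over all CpGs. At an unadjusted p under 0.05, 7.87% were higher and 2.73% lower, beside 5.16% and 3.93% over all CpGs. Of their gene bodies, 9 of 57 were apart and higher and 0 lower, beside 5.19% higher and 2.84% lower over all gene bodies. The homeobox genes that hepatocytes themselves use, such as *Onecut1* and *Prox1*, lay slightly lower on average. These 11 genes had 17.7% in mid-aged and 17.9% in young mice (-0.195 points over 1006 CpGs). Of their 11 bodies 0 were apart and higher and 2 lower, and 1 CpG, in *Onecut2*, was called lower. At an unadjusted p under 0.05, 3.48% of their CpGs were higher and 4.87% lower. The 11 genes of Polycomb repressive complex 2, which writes H3K27me3, had a difference of 0.221 points over 624 CpGs, no call, and 0 of 9 bodies apart. These lists were compared by counts only, and the differences between them were not tested.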

How the data were processed

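RRBS libraries of hepatocytes from 4 mid-aged and 4 young mice were analyzed, 1 per mouse. Per strand and CpG of mm10, the authors deposited methylation as a percent of reads, with a coverage count beside it and no normalization. Other columns had no stated meaning and were left out. Per the labels, tools were BWA 0.6.2, Picard 1.115, SAMtools 1.3, Trim Galore 0.4.2 and FastQC, and the caller of methylation was not named. PCR reads without molecular identifiers are not independent molecules, so read counts overstate precision.

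Methylated reads were recovered from percent and coverage, strands were summed, and CpGs with at least 5 reads in every mouse were kept. Libraries held 46382661 to 118475218 reads over CpGs. Genes came from GENCODE vM21, and sequences from GRCm38. Single CpGs were tested with a quasi-binomial logistic regression, its dispersion moderated by limma 3.58.1 (R 4.3.3). A call needed an adjusted p under 0.05, 5 points of difference and a variance under 0.05 in both groups. Mean percents of promoters and gene bodies (3 or more tested CpGs) were tested by limma, with adjustment over all genes. Python 3.11.15, numpy 2.4.6, pandas 2.3.3, pysam 0.24.0 and matplotlib 3.10.9 were used.

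The genes and lists were chosen with earlier results of these data known. Genes given in full were those with called CpGs, with a promoter or body past limma, and the 3 highest and 3 lowest promoters in young mice. Others were named after their values were seen. Alternatives covered coverage, model, thresholds, weights, a replicate block and each mouse left out.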

Additional observations from a re-analysis of the deposited data

Results flagged for a closer look

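In 130 groups of 4 mice (the gene bodies of the 57 genes, the 7 called CpGs and the mean of all their CpGs), 10 groups had 1 mouse far from the other 3 by Dixon's test. Chance marks about 1 in 20 groups. Young mouse 1 was high in the gene bodies of *Nkx2-1* (5.47%, others 3.43 to 3.75%) and *Dlx3* (18.6%, others 13.0 to 13.8%) and low in *Evx1* (8.62%, others 10.2 to 10.5%). Young mouse 3 was low in the bodies of *Lhx9* (8.49%, others 10.6 to 10.9%) and *Six3* (4.31%, others 4.89 to 4.95%). Young mouse 4 was low in the *Alx4* body (34.5%, others 36.3 to 36.4%) and at the *Meis1* CpG at 19016461 (16.0%, others 20.4 to 21.2%). Mid-aged mouse 1 was low in the *Pax3* body (33.4%, others 34.8 to 34.9%) and at the *Pax5* CpG (17.0%, others 19.6 to 19.9%), and high in the *Nkx2-1* body (4.84%, others 4.21 to 4.30%). At *Pax5* the mouse lies on the side away from the young mice, so it widens the difference there.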

How the results depend on the processing

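The counts of called CpGs were 4 higher and 3 lower. They were 0 and 0 with limma on M values (313 and 335 at an unadjusted p under 0.05) and 0 and 0 with the replicate block (312 and 58). With one mouse left out they ranged from 0 to 10 and from 1 to 3. Deviations of mice with equal replicate numbers correlated at -0.00244 to 0.00811 over 123318 CpGs, and those with unequal numbers at -0.00912 to 0.0101. Sampling noise of reads at single CpGs keeps such values low, so they cannot show whether the numbers paired the mice. Gene bodies called were 1, and became 3 (*Emx1*, *Isl2*, *Nkx2-3*) with 10 reads, 6 with at least 10 CpGs, and 0 with methylated reads over all reads (11 at an unadjusted p under 0.05), with the replicate block (21) and with any mouse left out (0 to 0, 18 to 25 unadjusted). Promoters called stayed at 0 throughout (9 to 15 unadjusted in the settings that kept all mice). Bodies that were apart fell from 16 to 8 with methylated reads over all reads.

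The mean difference of 0.917 points was -2.54 as methylated reads over all reads, and lay at 0.867 to 1.0 with one mouse left out. Small promoter differences turned sign with one mouse out: *Alx4* (range -0.151 to 1.02 points), *Meis1* (-0.0137 to 0.179) and *Nkx2-3* (-0.392 to 0.954). The 7 called CpGs kept their direction with each mouse left out, as did the 5 that had 10 reads in every mouse. Depth was low at the *Meis1* CpG at 19016461 and in *Cux2* intron 2, with 8 reads in the shallowest mouse.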
